A study of Rattus norvegicus with 18 samples.

Results

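The 37 genes described here are all the genes that the deposited count table places on chromosome MT, the mitochondrial genome, of 32883 genes in all. They comprise 13 genes for proteins, 2 for ribosomal RNAs and 22 for transfer RNAs. The rule that picks them uses no measured value, though it was set with earlier results of these data known. The table carries identifiers but no names, so each gene was named by its place in the gene order that mammalian mitochondrial genomes share, with its strand and length as checks. Of the 37 genes, 28 lie on the plus strand, and Nd6 and 8 tRNA genes lie on the minus strand.

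RNA-seq libraries of 18 male rats were made from visceral white adipose tissue (vWAT), and each library stands for 1 rat. The WKY group held 6 Wistar-Kyoto rats, the normotensive control strain, which were not given TMAO. The SHR-Water group held 6 spontaneously hypertensive rats (SHRs) that drank tap water for 22 weeks. The SHR-TMAO group held 6 SHRs that received trimethylamine oxide (TMAO), a metabolite made from dietary choline and carnitine, at 1 g/L in drinking water for 22 weeks. The SHRs entered the study at 7 to 8 weeks of age and were assigned to water or TMAO at random, so SHR-TMAO against SHR-Water is the comparison of the treatment, and SHR-Water against WKY that of the strains. WKY and SHR are inbred strains, so every strain difference compares 1 genome of the nucleus and mitochondrion with another. SHR-TMAO against WKY differs in both strain and treatment, which cannot be told apart there. The 3 comparisons share their rats in pairs and are not independent of each other.

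Mitochondrial DNA is a small circle that is copied and transcribed inside the organelle. Nearly all of its genes are read from a promoter on one strand as a single long RNA, which is released into mRNAs and rRNAs by cleavage at the tRNAs that punctuate it, whereas Nd6 and some tRNAs come from the RNA of the opposite strand. Its proteins are core subunits of the respiratory chain: the Nd proteins belong to complex I, Cytb to complex III, the Cox proteins to complex IV and Atp6 and Atp8 to the ATP synthase, complex V. White adipocytes hold fewer mitochondria than brown ones, and they use them for fatty acid oxidation and for the synthesis of fat.

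The libraries held between 10774133 and 18874161 counts, of which 50243177 fell on the mitochondrial genes over the 18 libraries. Each gene is given on 2 scales. Its share of the library is its percent of all counts of that rat, and its share of the mitochondrial counts is its percent of the sum of the 37 genes. The second scale shows the make-up of the mitochondrial RNA whatever its amount, and on it a higher share of one gene lowers those of the others. Nuclear genes on this scale also carry the spread of the mitochondrial total between rats. Shares of all genes given for this scale are therefore not a like measure for the mitochondrial genes. Differences across all genes were tested with edgeR's quasi-likelihood test, with Benjamini-Hochberg adjustment over all genes tested, and a gene was called at an adjusted p under 0.05. Beside it, single shares were compared with the two-sided exact permutation test over rats, whose smallest p for 6 against 6 is 0.00216. Its p-values are unadjusted unless stated. A value after ± is the SD over the 6 rats of a group, or, after a log2 fold change, its SE. The 13 protein genes and 2 rRNA genes all passed the filter on low counts, as did 8 or 9 of the 22 tRNA genes. In tissue RNA, fewer cells of a type and less RNA per cell cannot be told apart. Identifiers of the nuclear genes matched no names, so markers of adipocytes or other cells and the nuclear partners of the respiratory chain were not analysed here.

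Mitochondrial genes took a large part of every library. In WKY rats they held 7.08% of the counts in the lowest rat, 15.2% at the median and 20.6% in the highest. In SHR-Water the lowest, median and highest values were 15.5%, 19.9% and 28.5%, and in SHR-TMAO they were 11.1%, 16.5% and 20.8%. The groups overlapped in every comparison. The means differed by 6.58 percentage points between SHR-Water and WKY, by -4.68 between SHR-TMAO and SHR-Water and by 1.90 between SHR-TMAO and WKY. The sum was given no test because it is a score over the chosen genes. The last difference rested on WKY replicate 4, the lowest rat, without which it was 0.339 percentage points.

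**Figure D1:**
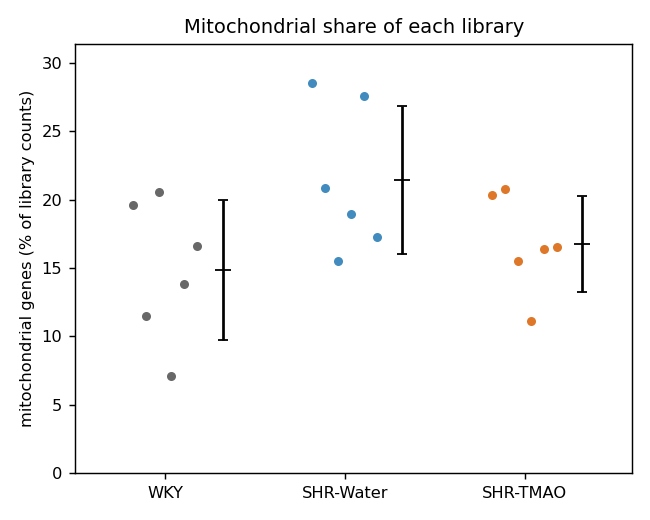
Mitochondrial genes as a percent of the counts of each library (y axis) in the 3 groups. Each point is 1 rat, and the bars to the right of the points give the mean and SD of 6 rats. The groups overlap, with WKY between 7.08% and 20.6%, SHR-Water between 15.5% and 28.5% and SHR-TMAO between 11.1% and 20.8%.

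Of the mitochondrial counts of WKY rats, 94.9% ± 2.30 fell on the protein genes, while SHR-Water stood at 96.4% ± 1.32 and SHR-TMAO at 95.996% ± 1.15. The 3 subunits of complex IV held 52.3% ± 3.23, 51.8% ± 2.103 and 54.2% ± 1.75 in the same order, and the 7 of complex I held 18.5% ± 1.50, 21.6% ± 0.823 and 20.8% ± 1.49. Complex III, which is Cytb alone, held 10.9% ± 0.838, 12.3% ± 0.361 and 10.8% ± 0.610. Complex V held 13.1% ± 0.836, 10.7% ± 0.662 and 10.2% ± 0.694. By these means complex IV led in each group, followed by complex I, whereas complex V stood above complex III in WKY and below it in both groups of SHRs. Counts on genes of the minus strand, mostly Nd6 and the tRNA for serine read by UCN codons, were between 1.08% and 2.40% of the mitochondrial counts of a rat.

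The ribosomal RNA genes Rnr1 and Rnr2, which encode the 12S and 16S RNAs of the mitochondrial ribosome, varied widely within WKY. Together they held 3.86% ± 2.20 of the mitochondrial counts of WKY rats, whereas the SHR-Water rats had 2.95% ± 1.30 and the SHR-TMAO rats 2.88% ± 0.940. In WKY replicates 1 and 3, Rnr2 held 4.77% and 4.18%, while the other WKY rats lay between 1.28% and 1.90%. The libraries of replicates 1 and 3 were also the shallowest, at 10948600 and 10774133 counts, where the other WKY libraries held at least 15667899. The part of depth or library quality in this spread was not tested. Both genes moved together: over the 18 libraries, Pearson's r between their log2 shares of the mitochondrial counts was 0.965, the highest of the 105 pairs among the 15 genes for proteins and rRNAs. Neither gene was called in any comparison.

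Levels were compared between genes as FPKM, counts scaled for gene length and for the library total, computed here. The paper made its libraries with SMART technology, from full-length cDNA. How well this captures each kind of mitochondrial RNA, such as the rRNAs, was not tested. The order below is therefore one of library counts and need not be that of the RNAs in the tissue. Cox1, the catalytic subunit of cytochrome c oxidase, had the highest mean over the 18 rats, 33530.5 FPKM. Cox3, another core subunit of that complex, followed at 32437.9 and Atp6, the proton channel subunit of the ATP synthase, at 28906. Cox1 exceeded Cox3 in 12 of 18 rats and Cox3 exceeded Atp6 in 14 of 18, so these neighbours did not separate in every rat. Cox2, which takes up electrons from cytochrome c, stood at 22880 and Cytb at 17792. Nd2 and Nd1, membrane subunits of complex I, stood at 12958 and 12943. Of these, Nd1 was the higher in 6 of 6 WKY rats and Nd2 in 5 of 6 SHR-TMAO rats.

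Below them came Nd3 at 7976, and then a group between 2042 and 2702 FPKM that held Nd6, Nd5, Rnr2, Nd4l and Rnr1. Atp8, a small subunit of the ATP synthase, stood at 1242 and Nd4 at 837. Cytb exceeded Nd2 and Nd3 exceeded Nd6 in 18 of 18 rats, which makes these the steps of the order that no rat crossed. Nd6 exceeded Nd5 in 6 of 6 WKY rats and 6 of 6 SHR-TMAO rats but in 1 of 6 SHR-Water rats. Atp8 and Atp6 overlap by 43 bases on the same strand and Nd4l and Nd4 by 7, and each pair is translated from a shared mRNA. Their levels nevertheless lay far apart, and a read that touched both genes of a pair was not counted.

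**Figure D2:**
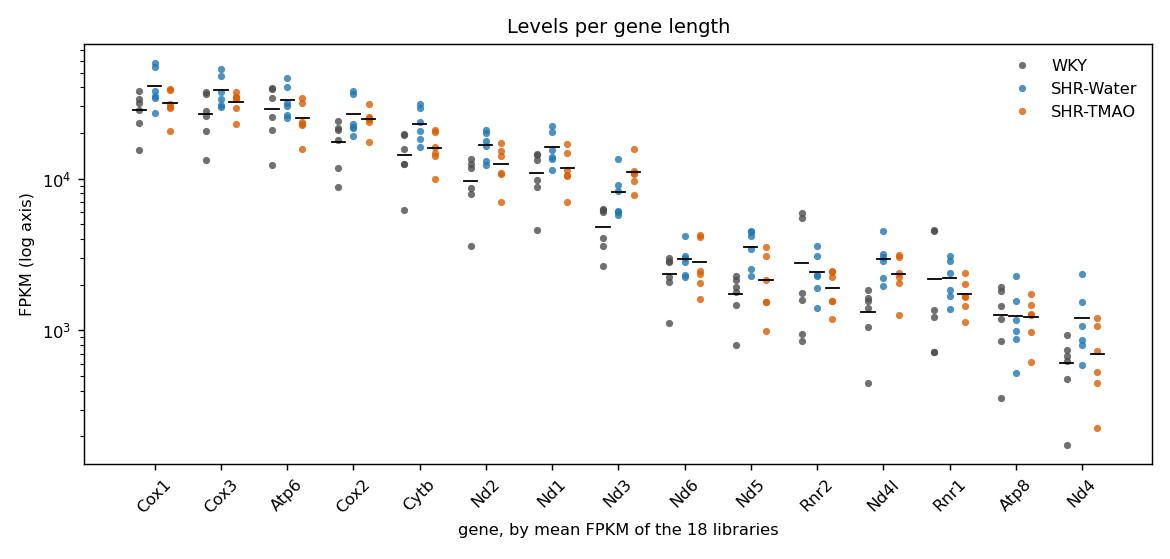
FPKM (log axis) of the 13 protein genes and 2 rRNA genes, ordered by their mean over the 18 libraries. Each point is 1 rat and each black line the mean of a group of 6. From Cox1 (33530.5 on average) to Nd4 (837), the 3 groups overlap for nearly every gene, with WKY below every SHR-Water rat for Nd4l and Nd5 and below every SHR-TMAO rat for Nd3.

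Among the 22 tRNA genes the counts were very uneven. The 18 libraries held 479270 counts on tRNA genes, of which 99.6% fell on the 8 genes of the minus strand. The tRNA for serine (UCN), whose gene ends 3 bases inside Cox1 on the opposite strand, took 423179 of them, or 88.3%. The tRNA for proline took 29090, that for glutamine 20243 and that for glutamic acid 3544. The 14 genes of the plus strand together held 2125. No count fell in any library on 6 tRNA genes, those for phenylalanine, cysteine, lysine, glycine, arginine and one of the leucine tRNAs (CUN), and 3 more held 1 count each. A count of 0 in the sum of all libraries allows a share of up to 5.97e-06% of the mitochondrial counts, for counting error only. Reads that overlapped a neighbouring gene on the same strand were not counted, and these counts do not separate a mature tRNA from longer RNA of its strand. This loss depends on the neighbours of a gene, so the split between the strands need not be one of RNA levels. Whether reads from the opposite strand, such as those of Cox1, were counted on a tRNA gene was not tested. Per length, the gene for serine (UCN), of 69 bases, had mean levels of 25669 FPKM in WKY rats, 17841 with SHR-Water and 22606 with SHR-TMAO. For a gene this short, FPKM is not a like measure to that of the protein genes.

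**Figure D3:**
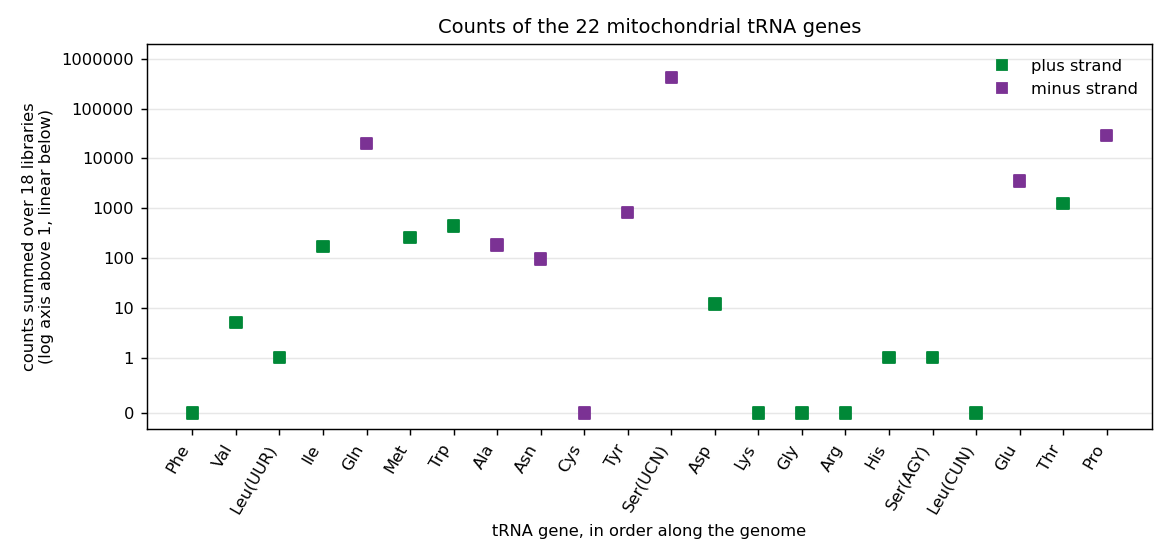
Counts of the 22 mitochondrial tRNA genes summed over the 18 libraries (y axis, log above 1 and linear below), in their order along the genome. Each square is 1 gene, green for the plus and purple for the minus strand. The gene for serine (UCN) reaches 423179, and 6 genes are at 0.

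Between the strains, 2 protein genes of complex I and the tRNA genes for glutamine and glutamic acid were called higher in SHR-Water than in WKY. Further tRNA genes were called at few counts in WKY. On the library scale, edgeR called 6 of the 23 genes tested, each of them higher in SHR-Water: Nd4l, Nd5 and the tRNA genes for glutamine, glutamic acid, tryptophan and tyrosine. Over all 13017 genes tested, 6.13% were called and 2.31% were called higher. The fold change was positive for 12 of the 13 protein genes, with a median log2 fold change of 0.62 against -0.00 for all genes tested. Both rRNA genes had negative values, -0.03 ± 0.46 for Rnr1 and -0.24 ± 0.46 for Rnr2, and neither passed the test. With nuclear totals as the scale 13 of 13 protein genes were positive, with a median of 0.72 where that of all genes was 0.16. The sign of the rRNA genes was not stable: Rnr1 turned positive there and with library totals, and both were positive without WKY replicate 1 (0.32 and 0.14) or 3 (0.30 and 0.07). These replicates are the shallow WKY libraries named above.

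Nd4l and Nd5 are subunits of the membrane arm of complex I. Nd5 (MT, bases 11736 to 13565, plus strand) held 0.147% of the library in the lowest WKY rat, 0.340% at the median and 0.417% in the highest, and 0.419%, 0.696% and 0.828% in SHR-Water. The 2 groups did not overlap, though they nearly touched, and the log2 fold change was 1.05 ± 0.28 (edgeR adjusted p = 0.0444). Nd4l (bases 9870 to 10166, plus strand) held 0.0134%, 0.0442% and 0.0550% in WKY and 0.0585%, 0.0880% and 0.134% in SHR-Water, again without overlap (log2 fold change 1.14 ± 0.29, edgeR adjusted p = 0.0297). Groups did not overlap for 3.93% of all genes tested on this scale. Both calls were weak. That of Nd5 was lost under 10 of 20 alternatives, with an adjusted p of up to 0.0959, and that of Nd4l under 6, with up to 0.0716, among them the loss of single rats of either group and, for both genes, a block for the replicate number.

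The tRNA gene for glutamine (bases 3761 to 3831, minus strand) showed the clearest difference. It had 130, 261 and 486 counts in the lowest, median and highest WKY rat and 998, 1737.5 and 2633 in SHR-Water. Every SHR-Water rat lay above every WKY rat, and the mean share of the library was 5.17 times as high (log2 fold change 2.38 ± 0.32, edgeR adjusted p = 0.000484). The tRNA gene for glutamic acid (bases 14062 to 14130, minus strand) had between 35 and 138 counts in WKY, with a median of 65.5, and between 174 and 439 in SHR-Water, with a median of 374 (log2 fold change 2.08 ± 0.31, edgeR adjusted p = 0.00110). The tRNA genes for tryptophan and tyrosine were called at lower counts. That for tryptophan had 1 to 10 counts in WKY and 15 to 39 in SHR-Water (log2 fold change 2.19 ± 0.47, edgeR adjusted p = 0.0131), and that for tyrosine 4 to 34 and 29 to 231 (2.46 ± 0.54, adjusted p = 0.0155). Such genes passed the filter through the group with more counts. How many of them were called, and how large their fold changes were, supports nothing by itself.

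Atp6 was a smaller part of the mitochondrial RNA in SHR-Water than in WKY, while its mean share of the library was not lower. Of the library it held 1.95% ± 0.744 in WKY and 2.26% ± 0.554 in SHR-Water, with overlap. On that scale its log2 fold change was 0.22 ± 0.31 (edgeR adjusted p = 0.665). The gene (bases 7919 to 8599, plus strand) held 11.8%, 12.7% and 13.9% of the mitochondrial counts in the lowest, median and highest WKY rat, and 9.58%, 10.6% and 11.3% in SHR-Water. Every WKY rat lay above every SHR-Water rat, and the mean share differed by -2.33 percentage points (exact permutation p = 0.00216, or 0.0464 after adjustment over all genes tested, of which 4.66% passed). What that smallest p adjusts to depends on how many genes reach it, here mostly nuclear genes that carry the mitochondrial total. On the library scale the same exact permutation p adjusted to 0.0550. An adjusted value of 0.0464, here or below, is therefore no support for a single gene. Groups did not overlap on this scale for 4.66% of all genes tested, 4.5% being lower and 0.161% higher in SHR-Water, where the median log2 fold change of all genes was -0.54 on this scale. The protein genes had a median of 0.05, which follows from using their own sum as the scale.

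Further protein genes were a larger part of the mitochondrial RNA in SHR-Water. Cytb held 10.9% ± 0.838 in WKY rats and 12.3% ± 0.361 with SHR-Water (exact permutation p = 0.00866). Nd2 held 6.62% ± 0.730 and 8.17% ± 0.624 (exact p = 0.00433, permutation), and Nd5 2.18% ± 0.371 and 3.03% ± 0.388 (exact permutation p = 0.00649). These groups overlapped by 1 rat or more, and after adjustment over all genes tested the exact p-values were 0.0752, 0.0564 and 0.0665. By contrast, the 2 genes of highest share were close in both strains, Cox1 at 30.04% ± 2.65 and 29.3% ± 1.74 and Cox3 at 14.2% ± 0.586 and 14.1% ± 0.488. Nd6, the single mRNA of the minus strand, held 0.756% to 0.943% in WKY with a median of 0.829%, and 0.549% to 0.784% in SHR-Water with a median of 0.769% (exact permutation p = 0.0346).

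The minus-strand tRNA genes did not move as 1 group. That for serine (UCN) (bases 6865 to 6933) held 0.855%, 1.27% and 1.49% of the mitochondrial counts in the lowest, median and highest WKY rat and 0.355%, 0.669% and 0.764% in SHR-Water. It was lower in every SHR-Water rat, with a mean difference of -0.609 percentage points (exact permutation p = 0.00216, adjusted 0.0464). As a share of the library it overlapped, at 0.177% ± 0.0703 in WKY and 0.123% ± 0.0331 in SHR-Water (exact permutation p = 0.123). The tRNA gene for glutamine was higher in every SHR-Water rat, at 0.0141% ± 0.00440 in WKY rats against 0.0508% ± 0.0110 (exact permutation p = 0.00216, adjusted 0.0464). The same held for that of glutamic acid, at 0.00338% ± 0.00149 and 0.00966% ± 0.00275 (exact permutation p = 0.00216, adjusted 0.0464). On this scale edgeR called 3 of the 23 genes, where 7.78% of all genes were called and 0.423% were called higher. They were the tRNA genes for glutamine (log2 fold change 1.85 ± 0.35, adjusted p = 0.00102), glutamic acid (1.51 ± 0.37, adjusted p = 0.0129) and tyrosine (2.02 ± 0.54, adjusted p = 0.0233). The call for tyrosine was lost without WKY replicate 4 or SHR-Water replicate 6 (adjusted p up to 0.0957) and that for glutamic acid with the length trend described further on as a covariate (0.0883). For serine (UCN) edgeR gave -1.02 ± 0.33 and an adjusted p of 0.0507. DESeq2 called 5 mitochondrial genes on this scale, and 14.6% of all genes.

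The 2 tests measure the spread of the abundant genes differently, since edgeR estimates it with the help of all other genes. For Atp6 between the strains, edgeR gave a log2 fold change of -0.29 ± 0.26 on the mitochondrial scale, where the spread between the rats alone gives a log2 difference of -0.29 with an SE of 0.052. A p from edgeR that missed the threshold on this scale does not show that such a share did not differ.

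**Figure D4:**
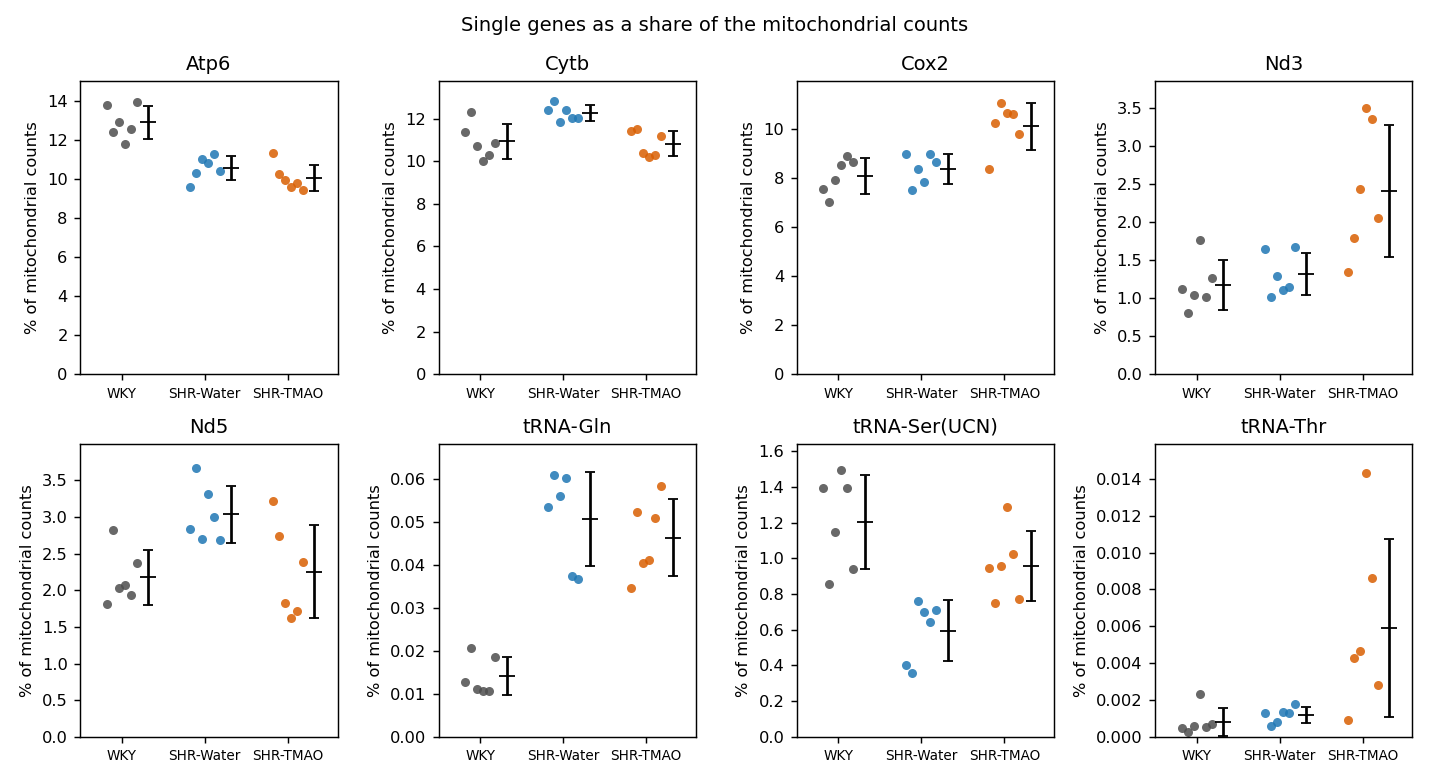
Share of the mitochondrial counts (y axis, percent, from 0) of 8 single genes in the 3 groups. Each point is 1 rat, with the mean and SD of 6 rats beside the points. Atp6 lies higher in every WKY rat than in every SHR-Water or SHR-TMAO rat, Cytb lies lower in every SHR-TMAO rat than in every SHR-Water rat, and the highest Nd3 shares are those of SHR-TMAO rats.

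In SHR-TMAO rats, no mitochondrial gene was called against SHR-Water on either scale, and none passed the exact test of its share of the mitochondrial counts after adjustment over all genes. Without adjustment, that test gave a p under 0.01 for 4 of the 24 genes tested, Cytb, Cox2, Nd3 and the tRNA gene for serine (UCN), and for 1.14% of all genes tested. The adjusted value of each of the 3 protein genes was 0.407. On the library scale edgeR called 0 of the 24 genes tested, as it called 0 of all 12852 genes tested (0.0%). At an unadjusted p under 0.05 it gave 3212 genes of all tested, and DESeq2 called 2 mitochondrial genes, the tRNA genes for tyrosine and threonine, and 8.51% of all genes. The log2 fold change was negative for 10 of the 13 protein genes, with a median of -0.33 against -0.01 for all genes. With library or nuclear totals 12 were negative, where the median of all genes was -0.13 and -0.20. On the mitochondrial scale edgeR called 0 of 24 genes and 0.0311% of all genes, 2184 genes had an unadjusted p under 0.05, and DESeq2 called 2, Nd3 and the tRNA gene for proline, and 8.37% of all genes to which it gave an adjusted p.

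Cytb (bases 14136 to 15278, plus strand), the core subunit of complex III, was a smaller part of the mitochondrial counts in every SHR-TMAO rat than in every SHR-Water rat. Its share was 11.9%, 12.2% and 12.9% in the lowest, median and highest SHR-Water rat and 10.2%, 10.8% and 11.5% in SHR-TMAO. The mean difference was -1.43 percentage points (exact permutation p = 0.00216, or 0.407 after adjustment over all genes tested, of which 0.0% passed). Of the 12852 genes tested, 0.00778% lay lower in every SHR-TMAO rat on this scale, which is Cytb alone, and 0.148% did not overlap in either direction. Nearly all of these genes are nuclear and carry the spread of the mitochondrial total, so that Cytb stood alone does not set it apart from them. The median log2 fold change of all genes was 0.19 on this scale. As a share of the library Cytb overlapped between the groups, at 2.64% ± 0.682 in the water group and 1.83% ± 0.472 in the TMAO group (exact permutation p = 0.0455), and no mitochondrial gene was free of overlap there, where 0.708% of all genes were. Leaving out any 1 rat kept the exact p of the mitochondrial share between 0.00216 and 0.00649, but groups that do not overlap stay apart when a rat is left out.

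Cox2 and Nd3 were larger parts of the mitochondrial counts in SHR-TMAO. Cox2 (bases 7006 to 7689, plus strand) held 7.51%, 8.51% and 9.01% in the lowest, median and highest SHR-Water rat and 8.37%, 10.4% and 11.1% in SHR-TMAO (exact permutation p = 0.00866). Only SHR-TMAO replicate 1 lay within the range of SHR-Water, and the other 5 lay above it. Nd3 (bases 9451 to 9798, plus strand), a subunit near the joint of the complex I arms, held 1.02%, 1.22% and 1.67% in SHR-Water and 1.34%, 2.24% and 3.50% in SHR-TMAO (exact permutation p = 0.00866). Again replicate 1 lay within the SHR-Water range while the other 5 rats were above it. In edgeR the log2 fold changes on this scale were 0.27 ± 0.19 for Cox2 and 0.88 ± 0.26 for Nd3, with adjusted p-values of 0.485 and 0.105.

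Nd5 stood at 3.03% ± 0.388 in SHR-Water and 2.25% ± 0.640 in SHR-TMAO (exact permutation p = 0.0368). This p stayed under 0.05 for 5 of the 12 rats left out in turn and was above it for the other 7, SHR-TMAO replicates 3, 4, 5 and 6 and SHR-Water replicates 2, 4 and 5, with a highest value of 0.0714. After adjustment over all genes it was 0.407. Cox1 held 29.3% ± 1.74 and 28.9% ± 0.462, Cox3 14.1% ± 0.488 and 15.1% ± 1.26, and Atp6 10.6% ± 0.615 and 10.1% ± 0.688, with overlap between the groups for each. Nd6 held 0.549%, 0.769% and 0.784% in the lowest, median and highest SHR-Water rat and 0.647%, 0.776% and 1.09% in SHR-TMAO, with overlap.

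Among the tRNA genes, that for threonine (bases 15280 to 15346, plus strand) had 19 to 63 counts in SHR-Water with a median of 45.5, and 27 to 264 in SHR-TMAO with a median of 129. Its log2 fold change was 2.31 ± 0.48 on the mitochondrial scale and 1.84 ± 0.50 on the library scale (edgeR adjusted p = 0.0613 and 0.0861). Replicate 1 was the SHR-TMAO rat with 27 counts. That for tyrosine had 29 to 231 counts in SHR-Water and 8 to 62 in SHR-TMAO, where replicate 1 was the highest (log2 fold change -2.26 ± 0.63 on the library scale, edgeR adjusted p = 0.0893). The tRNA gene for serine (UCN) held 0.595% ± 0.173 of the mitochondrial counts in SHR-Water and 0.958% ± 0.195 in SHR-TMAO (exact permutation p = 0.00433), and that for glutamine 0.0508% ± 0.0110 and 0.0464% ± 0.00895. Without SHR-Water replicate 1, edgeR called 4 mitochondrial genes on either scale, where it called 14.3% and 2.61% of all genes. Without SHR-TMAO replicate 1 it called 3 on the library scale and 4 on the mitochondrial scale, where it called 11.6% and 3.48%.

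A property of the libraries moved with Nd3 and with the tRNA genes for threonine and proline. The length trend of a library is Spearman's rho, over 13301 nuclear genes, between gene length and the gene's deviation from its mean over the libraries. WKY rats had a mean of -0.0713 ± 0.210, SHR-Water rats of 0.180 ± 0.272 and SHR-TMAO rats of -0.159 ± 0.162. SHR-TMAO replicate 1 had the only positive value of its group, 0.103, and SHR-TMAO replicate 4, with the highest Nd3 share and the highest threonine tRNA share, had the lowest, -0.346. In WKY, replicate 4 had the lowest trend of all, -0.397, and the highest WKY shares of Nd3 (1.76%) and of the threonine and proline tRNA genes. The 3 shortest protein genes are Atp8 (204 bases), Nd4l (297 bases) and Nd3 (348 bases), whose mean shares of the mitochondrial counts in SHR-TMAO were 1.16, 0.978 and 1.84 times those in SHR-Water, and each tRNA gene has under 80 bases.

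With the trend as a covariate in edgeR, the log2 fold change of Nd3 between SHR-TMAO and SHR-Water went from 0.88 to 0.38 on the mitochondrial scale and from 0.48 to -0.16 on the library scale. That of the threonine tRNA gene went from 2.31 to 1.03 and from 1.84 to 0.46, and that of the proline tRNA gene from 1.33 to 0.47 and from 0.83 to -0.20. Cytb went from -0.18 to -0.14 on the mitochondrial scale and Cox2 from 0.27 to 0.12. The trend differs between the groups, so its part in these differences and that of the treatment cannot be told apart by this covariate.

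**Figure D5:**
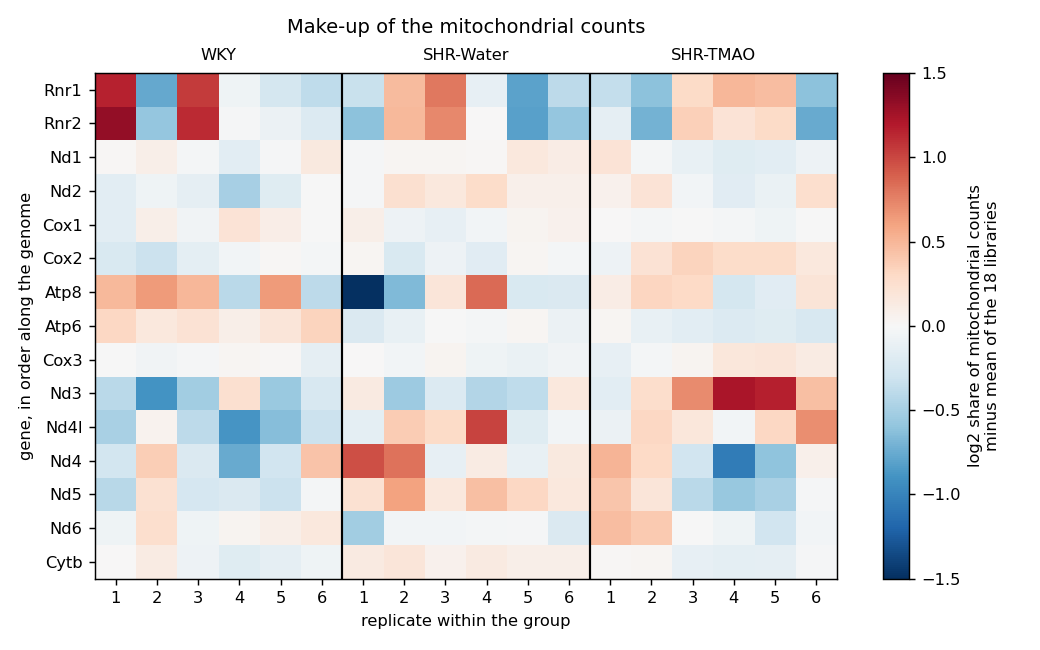
Make-up of the mitochondrial counts in each library: log2 share of the mitochondrial counts of the 13 protein genes and 2 rRNA genes, minus the gene's mean over the 18 libraries (colour, red higher and blue lower), with genes in genome order on the y axis and rats by group on the x axis. Rnr1 and Rnr2 are red in WKY replicates 1 and 3, Atp6 is red in WKY rats, and Nd3 is darkest in SHR-TMAO replicates 4 and 5.

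Against WKY, Nd3 and the glutamine tRNA gene were called higher in SHR-TMAO, as were further tRNA genes, some of them with few counts in WKY. On the library scale edgeR called 6 of the 23 genes tested, each higher in SHR-TMAO: Nd3 and the tRNA genes for glutamine, threonine, tryptophan, proline and glutamic acid. Over all 12833 genes tested, 7.75% were called and 3.5% were called higher. The protein genes had a median log2 fold change of 0.31, with 12 of 13 positive, against -0.02 for all genes. With library or nuclear totals 11 of 13 were positive.

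Nd3 held 0.0921%, 0.175% and 0.220% of the library in the lowest, median and highest WKY rat and 0.272%, 0.374% and 0.550% in SHR-TMAO. The groups did not overlap, and groups did not overlap for 4.33% of all genes tested. Its log2 fold change was 1.23 ± 0.24 (edgeR adjusted p = 0.00785), and it was 1.12 with the length trend as a covariate (adjusted p = 0.0103). The call was kept under each of the 20 alternatives run, with an adjusted p of up to 0.0346. Between SHR-Water and WKY, which share the WKY rats with this comparison, the log2 fold change of Nd3 was 0.78 ± 0.32 (edgeR adjusted p = 0.159), or 1.13 with the trend as a covariate (adjusted p = 0.0203). As a share of the mitochondrial counts Nd3 stood at 1.17% ± 0.328 against 2.41% ± 0.866 in SHR-TMAO (exact permutation p = 0.00433), where edgeR gave 1.05 ± 0.33 and an adjusted p of 0.0731.

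The glutamine tRNA gene had 759, 1309 and 1823 counts in the lowest, median and highest SHR-TMAO rat, all above the highest WKY rat, at 486 (log2 fold change 1.97 ± 0.29, edgeR adjusted p = 0.00104). Its mean share of the library was 3.74 times that in WKY. The threonine tRNA gene had 6 to 28 counts in WKY against 27 to 264 (3.17 ± 0.52, adjusted p = 0.00228), and that for tryptophan 1 to 10 against 17 to 85 (2.76 ± 0.55, adjusted p = 0.00777). Genes with so few counts in WKY passed the filter through SHR-TMAO. How many of them were called, and how large their fold changes were, supports nothing by itself. The proline tRNA gene (bases 15348 to 15415, minus strand) had 494 to 956 counts in WKY and 589 to 5015 in SHR-TMAO (1.78 ± 0.37, adjusted p = 0.0104). That for glutamic acid had 35 to 138 and 111 to 318 (1.32 ± 0.33, adjusted p = 0.0263), and this call was lost under 3 of 20 alternatives. Between SHR-Water and WKY, edgeR gave 1.35 ± 0.46 for threonine and 0.97 ± 0.38 for proline on this scale (adjusted p = 0.0977 and 0.143). With the length trend as a covariate these were 2.06 and 1.42 (adjusted p = 0.00388 and 0.0121). The threonine tRNA gene was also called there with DESeq2 and with nuclear totals.

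On the mitochondrial scale edgeR called 4 of the 23 genes, all tRNA genes and all higher in SHR-TMAO, where 3.89% of all genes were called, 0.592% were called higher and the median of all genes was -0.35. The log2 fold changes were 1.72 ± 0.30 for glutamine, 2.92 ± 0.56 for threonine, 2.53 ± 0.60 for tryptophan and 1.54 ± 0.44 for proline, with adjusted p-values of 0.00106, 0.00279, 0.0160 and 0.0499. The call for proline was lost under 13 of 19 alternatives. The filter limits this count of called genes, and the fold changes of those with few counts in WKY, as it does on the library scale.

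By the exact test on this scale, Atp6 and the glutamine tRNA gene separated SHR-TMAO from WKY in every rat, and groups did not overlap for 3.13% of all genes tested. Atp6 averaged 12.9% ± 0.837 in WKY rats against 10.1% ± 0.688 in SHR-TMAO (exact permutation p = 0.00216, adjusted 0.0691, with 0.0% of all genes passing). Its SHR-TMAO rats lay between 9.43% and 11.3% with a median of 9.85%, below the lowest WKY rat. On the library scale edgeR gave Atp6 a log2 fold change of -0.14 ± 0.29 (adjusted p = 0.820). Cox2 held 8.10% ± 0.728 and 10.1% ± 0.959 (exact permutation p = 0.00866), and Nd4l 0.262% ± 0.0590 and 0.417% ± 0.0865 (exact permutation p = 0.00649). Cytb stood at 10.9% ± 0.838 and 10.8% ± 0.610 (exact permutation p = 0.814). That for isoleucine also did not overlap, with 0 to 6 counts in WKY and 9 to 25 in SHR-TMAO, but it did not pass the filter on low counts.

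As shares of the library, most of the genes varied together over the 18 libraries, but within the groups of SHRs a part of the pairs did not. Over the 18 libraries and the 105 pairs of the 15 genes for proteins and rRNAs, Pearson's r between log2 shares of the library had a median of 0.749, from -0.0293 for Atp8 and Nd3 to 0.983 for Nd1 and Cytb. Shares of the mitochondrial counts sum to a fixed total, which by itself pulls the average r between them below 0. Over the 18 libraries the lowest r on that scale was -0.865, for Nd1 and Cox3, and the genes most like Nd3 were Cox2 (r = 0.876) and Cox3 (r = 0.742). These values describe the libraries, whose depth and total the genes share, and carry no test.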

How the data were processed

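RNA-seq of vWAT was measured in 18 rats, 6 per group, grouped by the sample titles. The submitters' processing notes name cutadapt 2.5, HISAT2 2.1.0 and the build Rnor_6.0. The authors deposited raw counts of reads per gene, made with featureCounts 1.6.3 on the Ensembl release 96 annotation in strand mode 2, per the file header. Its command has no option for reads that map to several places or overlap several genes, so these were not counted, and reads rather than pairs were counted. Nuclear copies of mitochondrial sequence can therefore lower these counts, which was not tested. The paper's methods name GENCODE.

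Everything else was computed here. edgeR 4.0.16 in R 4.3.3 (quasi-likelihood test, filterByExpr, 2 groups per fit) was run with TMM scaling, called the library scale, and with the mitochondrial total as library size and no further scaling, called the mitochondrial scale. Exact permutation tests over 924 splits and figures used Python 3.11.15, numpy 2.4.6, scipy 1.17.1 and matplotlib 3.10.9. The alternatives included DESeq2 1.42.0, other scalings, no filter, all 18 samples in 1 fit, a replicate block, the length trend as a covariate and leaving out each rat. The edgeR fits were checked on simulated counts for SHR-Water against WKY, with changes placed only in nuclear genes above a count limit. That check did not cover the mitochondrial genes, or genes of low count. The exact tests over all genes, and those of single shares with other totals or without a rat, were added after seeing the data. The members, the lists and the tests were chosen with earlier results of these data known.

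Genes were named by rule: the 13 protein genes, the 2 rRNA genes, tRNA genes with a median count of at least 10 or called, with values per group for the 3 of highest share, Nd6 and the up to 3 of smallest adjusted p per comparison. The tRNA genes for isoleucine and those at 0 were named after their values were seen. The RefSeq names given for this rat matched 0 identifiers, so the nuclear gene lists and cell type markers were not analysed, and no sequence of the mitochondrial genome was used. No pair of libraries within a group agreed within sampling noise.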

Additional observations from a re-analysis of the deposited data

Results flagged for a closer look

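In each group of 6 rats, the share of the mitochondrial counts was examined for a single rat far from the other 5 by Dixon's test, over 24 measures and 72 groups. It marked 8 groups, where chance marks about 1 in 20. The marks fell on 5 rats, of which SHR-Water replicate 4, SHR-TMAO replicate 1 and WKY replicate 4 were marked for 2 genes each. SHR-Water replicate 4 had 0.709% on Nd4l, where the others lay between 0.310% and 0.456%, and 0.00127% on the tryptophan tRNA gene, where they lay between 0.000552% and 0.000820%. SHR-TMAO replicate 1 had 0.00205% on the tyrosine tRNA gene (others 0.000250% to 0.000641%) and 0.0105% on that for glutamic acid (others 0.00481% to 0.00692%). WKY replicate 4 had 0.00230% on the threonine tRNA gene (others 0.000277% to 0.000692%) and 0.0785% on that for proline (others 0.0214% to 0.0330%). SHR-Water replicate 6 had 0.00850% on the tyrosine tRNA gene (others 0.000921% to 0.00340%), and WKY replicate 2 had 0.00636% on that for glutamic acid (others 0.00225% to 0.00303%). Nd4l lost its call between the strains without SHR-Water replicate 4, and the tyrosine tRNA gene lost its call on the mitochondrial scale without SHR-Water replicate 6 or WKY replicate 4.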

How the results depend on the processing

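Of 742 alternatives for single genes in the edgeR fits or with DESeq2, 654 kept the direction and the side of the threshold, 35 lost a call, 39 gained one and 14 turned in direction, none of the last a called value. With the length trend as a covariate Nd3 and the proline tRNA gene turned to -0.16 and -0.20 between SHR-TMAO and SHR-Water on the library scale. Between the strains on that scale, Rnr1 turned to 0.0091 with library totals, 0.072 with nuclear totals, 0.0059 without the filter and 0.32 with the replicate block, and it ranged from -0.21 to 0.32 with 1 rat left out. Rnr2 turned to 0.12 with the replicate block and ranged from -0.41 to 0.14 with 1 rat left out. Of 165 alternatives of the counts of genes called and of the mitochondrial share of the library, 153 stayed within 1.5 times the count or within 1 SD between rats of the share difference, and 12 counts did not. That SD, 4.39 percentage points for SHR-TMAO against WKY, is larger than the difference of 1.90 itself, which fell to 0.339 without WKY replicate 4. For SHR-TMAO against SHR-Water it is 4.58, nearly the size of the difference of -4.68, and for SHR-Water against WKY 5.28 beside 6.58. With limits so wide, few changes of the share could count as a move. DESeq2 called 5 genes between SHR-Water and WKY on the mitochondrial scale, where edgeR called 3, and between SHR-TMAO and SHR-Water it called 2 on each scale, where edgeR called 0. Without the filter edgeR called 2 in that comparison on the mitochondrial scale. With 1 rat left out, edgeR called 0 to 4 genes between SHR-TMAO and SHR-Water on either scale, 4 without SHR-Water replicate 1, and on the mitochondrial scale 1 without SHR-Water replicate 6 and SHR-TMAO replicates 2 or 6. It called 4 to 6 and 2 to 4 between SHR-Water and WKY on the library and mitochondrial scales, and 5 to 7 and 3 to 5 between SHR-TMAO and WKY. The exact permutation test over all genes called 4 between the strains on the mitochondrial scale and 0 between SHR-TMAO and WKY, where edgeR called 4, and that adjusted p can go no lower than 0.0691 there. Between the strains it can reach 0.0464, so these counts follow from how many genes share the smallest p. The cause of these moves was not tested. The difference in mitochondrial share ranged from 5.02 to 7.76, from -5.87 to -3.26 and from 0.339 to 3.04 percentage points with 1 rat left out. The single shares examined with 1 rat left out were 17 named ones chosen because their exact p with all rats was under 0.05. Of these, 16 kept an exact p under 0.05 whichever rat was left out, the exception being Nd5 between SHR-TMAO and SHR-Water. Groups that do not overlap stay apart when a rat is left out, so for such shares this could hardly fail. Of the 6 pairs of same-numbered rats, the deviations correlated over 0.1 in 5 pairs for SHR-Water and WKY (r from -0.259 to 0.523), in 0 for SHR-TMAO and SHR-Water (-0.346 to 0.0250) and in 1 for SHR-TMAO and WKY (-0.208 to 0.251). Of 6 rats, 2, 0 and 1 correlated best with their own number, and since no comparison had all pairs over 0.1 the numbers were not taken to pair the rats. With the replicate block edgeR called 4, 0 and 7 genes on the library scale and 3, 0 and 5 on the mitochondrial scale for the 3 comparisons. These counts under alternatives stand without the share of all genes called, which moved too. On the library scale between SHR-TMAO and SHR-Water that share went from 0.0% to 14.3% without SHR-Water replicate 1. The counts are therefore not read as results about the mitochondrial genes. The block ended the library-scale calls of Nd4l (adjusted p = 0.0645) and Nd5 (0.0661) between the strains. Counts under about 30 per library limit the tryptophan, tyrosine and threonine tRNA genes.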
